A study of Mus musculus with 16 samples.

Results

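The Vps13 family of the mouse comprises 4 genes, Vps13a, Vps13b, Vps13c and Vps13d, and their peaks were followed through 8 lists of peaks of RNA immunoprecipitated with THOC5. They were taken by name, as a family whose members carry many peaks in these lists, so their peak numbers and their presence in every list are a description of the choice and not a result. A peak belonged to a gene if the deposited annotation placed it inside a RefSeq transcript of that gene, in an exon, an intron or a UTR. By this rule 460 of 28998 peaks lay in the 4 genes, which are 4 of the 4051 genes with at least 1 peak inside. All 4 had a peak in all 8 lists, as did 9.87% of the 4051 genes.

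The cells were primary mouse vascular smooth muscle cells, the contractile cells of the vessel wall. In the first condition, THOC5 OE, cells labelled as overexpressing THOC5 were kept in osteogenic medium, and in GFP OE, cells overexpressing GFP, labelled WT in genotype, were kept in the same medium. In Pi, WT cells with no labelled overexpression were in osteogenic medium, and in Ctrl, WT cells were in growth medium. Each condition had 2 immunoprecipitated samples, and the other 8 of the 16 samples are inputs, which were not analysed here. The labels do not say whether the 2 samples of a condition came from separate cultures, so the spread between them may be technical. The cells of THOC5 OE and GFP OE are called vector-carrying here; the sources used here name neither vector nor promoter, and no expression values were at hand to check the overexpression.

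VPS13 proteins are very large, rod-shaped proteins that bridge the membranes of neighbouring organelles and carry lipids between them along a hydrophobic groove. VPS13A works at contacts of the endoplasmic reticulum with mitochondria and lipid droplets, VPS13B at the Golgi apparatus, VPS13C at contacts with late endosomes and lysosomes, and VPS13D at mitochondria and peroxisomes. In humans, loss of VPS13A causes chorea-acanthocytosis, loss of VPS13B causes Cohen syndrome, and variants of VPS13C and VPS13D cause parkinsonism and a movement disorder with ataxia. THOC5 belongs to the THO complex, part of the TREX machinery that packages messenger RNA for export from the nucleus. RNA immunoprecipitation recovers RNA bound to a protein with an antibody, and a peak is a stretch of the genome where the recovered reads pile up.

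Several of the peaks that recurred between lists lay just inside a start annotated in RefSeq, and the windows around those starts are shown for this reason. RefSeq promoter windows were at hand for 3 starts of 2 of the genes, of build GRCm38.p6, the build of the peaks; all 3 starts are on the minus strand. Each is printed 5′ to 3′ with 250 bases before the start in lower case and the 50 bases from the start on in capitals.
Vps13d outer start, chr4:145194956-145195255: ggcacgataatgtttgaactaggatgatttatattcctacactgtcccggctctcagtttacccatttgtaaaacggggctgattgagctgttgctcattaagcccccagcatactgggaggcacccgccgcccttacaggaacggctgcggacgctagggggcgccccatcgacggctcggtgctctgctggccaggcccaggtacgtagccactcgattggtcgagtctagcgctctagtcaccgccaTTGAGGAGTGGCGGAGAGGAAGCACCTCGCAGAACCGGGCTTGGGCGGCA
Vps13d inner start, chr4:145190617-145190916: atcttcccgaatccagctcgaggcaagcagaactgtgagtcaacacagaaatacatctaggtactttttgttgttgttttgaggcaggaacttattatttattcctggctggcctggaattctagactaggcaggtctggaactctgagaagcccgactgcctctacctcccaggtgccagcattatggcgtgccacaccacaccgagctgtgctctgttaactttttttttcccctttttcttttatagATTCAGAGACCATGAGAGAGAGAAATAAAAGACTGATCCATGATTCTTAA
Vps13a start, chr19:16780884-16781183: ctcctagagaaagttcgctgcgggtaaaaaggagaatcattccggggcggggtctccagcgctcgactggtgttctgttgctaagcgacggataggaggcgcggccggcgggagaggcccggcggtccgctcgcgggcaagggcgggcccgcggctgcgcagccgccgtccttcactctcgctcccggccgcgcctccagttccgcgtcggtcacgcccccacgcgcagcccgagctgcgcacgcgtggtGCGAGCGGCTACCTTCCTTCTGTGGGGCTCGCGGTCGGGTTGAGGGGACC
The window of Vps13a held 42 CG dinucleotides, a number that 3.03% of 32851 RefSeq promoter windows of the same length reached. The outer window of Vps13d held 21, reached by 24.8% of windows, and its inner window held 5, reached by 62.0%. Beside the inner start of Vps13d, all 8 lists had a peak centred 251 to 357 bases downstream, annotated to intron 2. Beside its outer start, which had the richer window, 1 list had a peak, centred 248 bases downstream. The inner start lies inside the gene and is known here from the RefSeq annotation only. Whether transcription begins there was not tested, so its peaks are not read as peaks at a promoter. Beside the Vps13a start, 6 lists had a peak centred 360 to 416 bases downstream.

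There were 4618 and 4240 peaks in THOC5 OE lists, 3711 and 2572 in GFP OE lists, 2666 and 3793 in Pi, and 2603 and 4795 in Ctrl. The number of peaks differed as much between samples of a condition as between conditions, so peak numbers are also given per 1000 peaks of the list. Within a list all peaks were equally wide (415 to 553 bp by list), and no peaks of a list started closer together than 839 bp, so a list could not hold several adjacent peaks in a short stretch. Of 8 smooth muscle markers, 4 had a peak in any list (Mylk in 8 lists, Acta2 in 3, Smtn in 2 and Tagln in 1), and Myh11, Cnn1, Myocd and Cald1 had none. Of the other markers, 0 of 4 endothelial, 1 of 3 fibroblast (Pdgfra, in 1 list) and 0 of 3 leukocyte genes had one. A gene without a peak may still be transcribed, since the lists hold no expression, and in bulk RNA fewer cells of a type and less RNA per cell cannot be told apart.

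Vps13b had by far the most peaks of the family, 228 over the 8 lists, which placed it at rank 2 of the 4051 genes, behind Syne1 with 360 and ahead of Utrn with 175. Vps13d had 147 (rank 8), Vps13a 50 (rank 79) and Vps13c 35 (rank 124). The genes differ in length. Vps13b spans 560112 bp on the plus strand of chr15 (35371118 to 35931229), and Vps13d spans 323993 bp on the minus strand of chr4 (144871045 to 145195037). Vps13a spans 165706 bp on the minus strand of chr19 (16615366 to 16781071), and Vps13c spans 157429 bp on the plus strand of chr9 (67840316 to 67997744). Per 100 kb of gene, and summed over lists and divided by 8, the order was Vps13d with 5.67 peaks, Vps13b with 5.09, Vps13a with 3.77 and Vps13c with 2.78. The first place in peak number thus went to the longest gene, and per length of the RefSeq span Vps13d and Vps13b lay close together. The span of Vps13d runs on past its last peak, 222 kb after the start, so its value would be higher over a shorter stretch.

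Vps13b had 29 and 32 peaks in THOC5 OE lists, 34 and 24 in GFP OE lists, 23 and 27 in Pi, and 28 and 31 in Ctrl. Vps13d had 17 and 14 in THOC5 OE lists, 20 and 12 in GFP OE lists, 19 and 23 in Pi, and 20 and 22 in Ctrl. For Vps13b every condition overlapped every other except Pi, whose lists were below both lists of THOC5 OE and both of Ctrl. For Vps13d both lists of THOC5 OE were below all 4 lists of Pi and Ctrl. How many of all genes separated in these ways was not counted, so nothing about Vps13b or Vps13d is read from it. Vps13a had 8 and 7 peaks in THOC5 OE lists, 13 and 3 in GFP OE lists, 4 and 7 in Pi, and 2 and 6 in Ctrl. Vps13c had 5 and 3 in THOC5 OE lists, 5 and 3 in GFP OE lists, 2 and 5 in Pi, and 3 and 9 in Ctrl. The lists of GFP OE stood farthest apart for Vps13a, and those of Ctrl for Vps13c. Across the 8 lists the peak number of the family followed the length of the list with a Pearson correlation of 0.70, as a description, and that of Vps13d alone with 0.23.

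**Figure D1:**
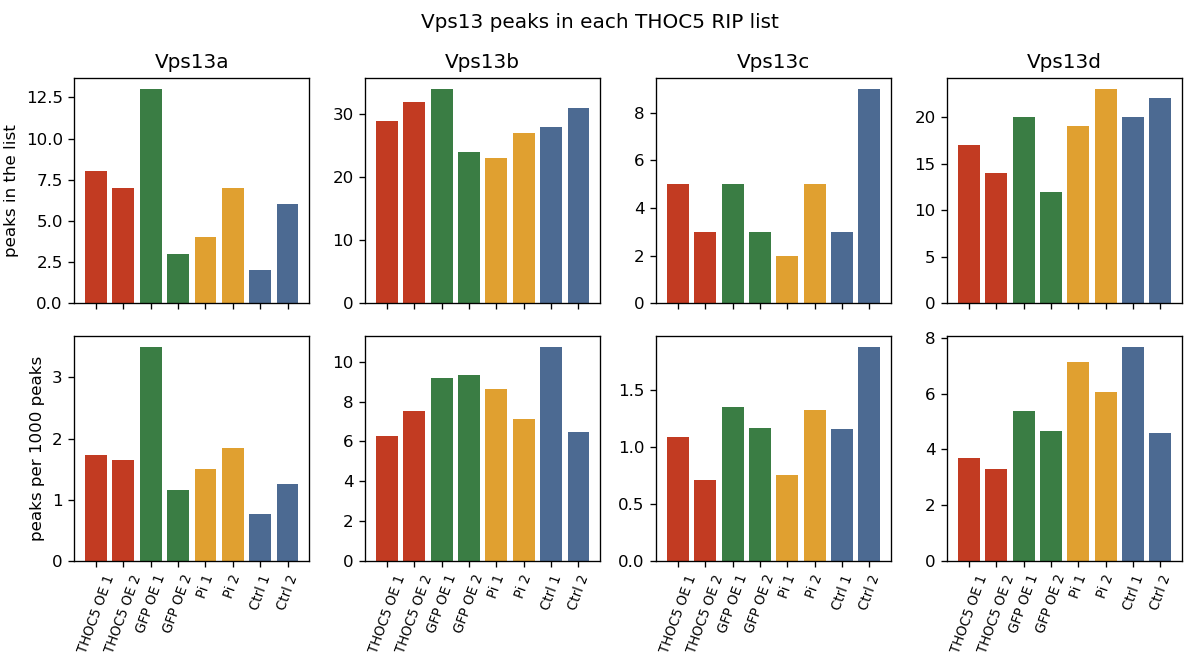
Peaks of each Vps13 gene in each list, as the number of peaks (upper row) and per 1000 peaks of the list (lower row). Each bar is 1 list, coloured by condition, with THOC5 OE on the left and Ctrl on the right; Vps13b had 23 to 34 peaks in every list and Vps13d 12 to 23, and Vps13a and Vps13c had 2 to 13.

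Under THOC5 overexpression, set against GFP overexpression in the same medium, the family had fewer peaks per 1000 in both lists. It made up 12.8 and 13.2 peaks per 1000 in THOC5 OE and 19.4 and 16.3 per 1000 in GFP OE, with no overlap. The difference of means was -4.87 per 1000, from 12.99 ± 0.305 in THOC5 OE and 17.9 ± 2.17 in GFP OE (SD, n = 2 each). The exact two-sided permutation test gave p = 0.333 (adjusted 0.741 over 20 tests), the smallest p that 2 lists against 2 allow, so the difference could not pass a threshold of 0.05. Vps13b differed by -2.33 per 1000, Vps13d by -1.54 and Vps13c by -0.36, each without overlap, and Vps13a by -0.64 with overlap. The share of all genes whose lists did not overlap in this comparison was not counted. The lack of overlap is therefore not read as a trait of the family or its members. With each list cut to its 2572 strongest peaks, the length of the shortest list, the family's difference was -0.389 per 1000 (exact permutation p = 1) and that of Vps13b was 0.194, in the other direction. As plain peak numbers the conditions were alike, 57.5 ± 2.12 in THOC5 OE and 57.0 ± 21.2 in GFP OE (SD, n = 2 each), a difference of 0.5, while the lists of THOC5 OE were longer.

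Osteogenic medium, set against growth medium in unmodified cells, left no separation of the family. Pi had 18.0 and 16.3 Vps13 peaks per 1000, and Ctrl had 20.4 and 14.2. The Pi values lay between the Ctrl values, and the means of 17.2 ± 1.17 in Pi and 17.3 ± 4.37 in Ctrl (SD, n = 2 each) differed by -0.10 per 1000 (exact permutation test, p = 1, adjusted p = 1). Vps13a was higher in both lists of Pi, by 0.66 per 1000 (exact permutation test, p = 0.333, the smallest possible). GFP overexpression, set against unmodified cells in the same osteogenic medium, gave 17.9 ± 2.17 per 1000 in GFP OE and 17.2 ± 1.17 in Pi (SD, n = 2 each), a difference of 0.69 with overlap (exact permutation test, p = 1). Within it, Vps13d had 5.39 and 4.67 per 1000 in GFP OE and 7.13 and 6.06 in Pi, and Vps13b had 9.16 and 9.33 in GFP OE and 8.63 and 7.12 in Pi. These genes differed in opposite directions, by -1.57 and 1.37 per 1000, each without overlap (exact permutation test, p = 0.333 for each, the smallest possible). The share of all genes that separated in the same comparisons was not counted. The opposite directions, and the higher values of Vps13a in Pi, are therefore descriptions only.

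The 4 lists of vector-carrying cells, THOC5 OE and GFP OE, were also set against the 4 lists of other cells, Pi and Ctrl, although Ctrl differs in medium as well. The family made up 15.4 ± 3.09 peaks per 1000 in vector-carrying cells and 17.2 ± 2.61 in other cells (SD, n = 4 each), a difference of -1.79 with overlap (exact two-sided permutation test, p = 0.371, adjusted p = 0.743). It was -3.12 without the first GFP OE list, -2.81 without the second Ctrl list, -1.05 without the second THOC5 OE list, -0.910 without the first and -0.748 without the first Ctrl list. Vps13d, the mitochondrial and peroxisomal member, stood at 4.26 ± 0.947 per 1000 in vector-carrying cells and 6.37 ± 1.36 in other cells (SD, n = 4 each). Its difference of -2.11 per 1000 had p = 0.0857 in the exact permutation test, where the smallest possible is 0.0286, and 0.741 after adjustment. Without the second Ctrl list the difference was -2.70 per 1000 and the unadjusted exact p was 0.0286, so that 1 list decided the side of 0.05. None of the 20 comparisons of peak number passed after adjustment, and 0 passed at an unadjusted p under 0.05.

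Along the genes, peaks of different lists often fell on the same positions. Overlapping peaks were merged across lists into places, at an overlap of at least 1 base, which gave 111 places for the 460 peaks: 40 in Vps13b, 38 in Vps13d, 20 in Vps13a and 13 in Vps13c. Of the 111 places 18 had a peak in all 8 lists, where 2.65% of all 11908 places in genes did, and 22 had a peak in 1 list only, where 49.0% did. Recurrence is close to what chose the genes, so nothing is read from that contrast. The 18 places lay in Vps13b (13) and Vps13d (5), and neither Vps13a nor Vps13c had one. The median place of Vps13b was held by 6 lists, that of Vps13d by 3, and those of Vps13a and Vps13c by 2.

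**Figure D2:**
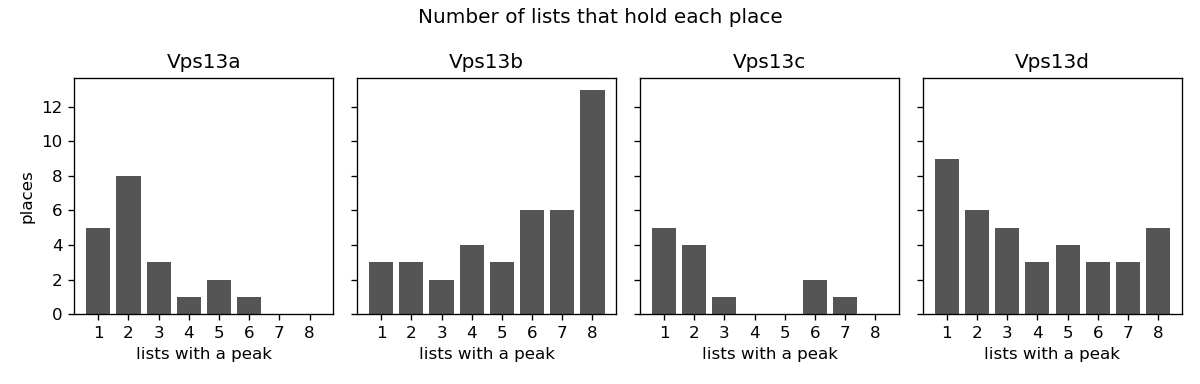
Number of places (merged overlapping peaks) in each Vps13 gene by the number of lists, from 1 to 8, that had a peak there. Vps13b had its tallest bar at 8 lists (13 places), Vps13d had 9 places in 1 list and 5 in all 8, and Vps13a and Vps13c had none in 8.

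The peaks of Vps13b ran the whole length of the gene, from 0.67 kb to 559 kb after its start, with 59, 67, 43 and 59 peaks in 4 successive stretches of equal length. The widest step from the start of a place to the start of the next was 61.4 kb. Vps13a and Vps13c were also marked from end to end, with 13, 16, 11 and 10 peaks and 9, 5, 12 and 9 peaks in the same stretches. Vps13d differed from them: its stretches held 68, 61, 18 and 0 peaks, and its last peak lay 222 kb after the start. The RefSeq span of Vps13d goes on past its last annotated peak at an exon numbered 69 of 69, so the empty stretch need not belong to the transcript to which the peaks were assigned.

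**Figure D3:**
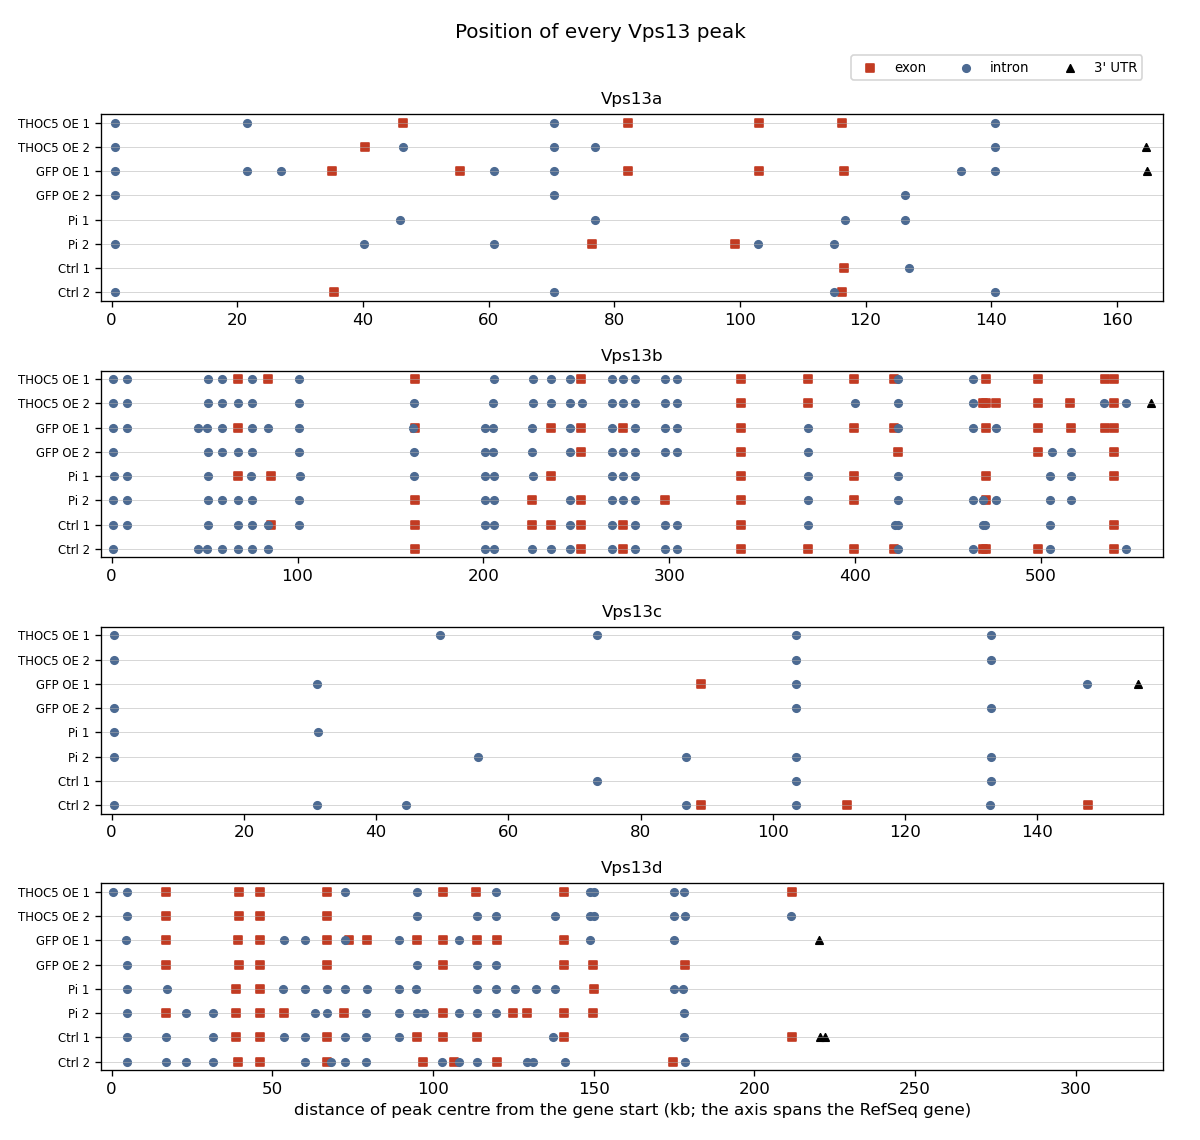
Position of each of the 460 Vps13 peaks, as the distance of its centre from the gene start in kb, in 1 panel a gene, each with its own scale spanning the RefSeq gene. Rows are lists, from THOC5 OE at the top to Ctrl at the bottom; red squares are peaks annotated to an exon, blue circles to an intron and black triangles to a 3′ UTR. Columns of symbols in Vps13b and Vps13d are places that recurred in several lists, and the right side of Vps13d is empty.

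At the beginning of the genes, each member had a recurrent place in an early intron. In Vps13b it covered introns 1 and 2, at chr15 35371521 to 35372424, and all 8 lists had a peak. Its score percentile, the rank of the peak's score within its own list, was 93.0 and 92.8 in THOC5 OE lists, 87.8 and 88.1 in GFP OE lists, 77.0 and 78.7 in Pi, and 70.8 and 82.6 in Ctrl. All 4 vector-carrying lists were above the other 4 there, as at 36.4% of the 316 genic places held by all 8 lists. In Vps13d the place at the inner start whose window is shown above lay in intron 2, at chr4 145190033 to 145190625. It was held by all 8 lists with percentiles of 75.8 to 86.9 and was annotated to an RSINE1 repeat in each. The start place of Vps13a, in intron 1 at chr19 16780248 to 16780786, was held by 6 lists, not by the first list of Pi or of Ctrl, and was annotated as a CpG island in each. Its percentiles were low, 48.4 and 49.1 in THOC5 OE lists, 37.5 and 43.8 in GFP OE lists, 24.0 in 1 list of Pi, and 16.1 in 1 list of Ctrl. That of Vps13c, in intron 1 at chr9 67840353 to 67840965, was also held by 6 lists and reached percentiles from 4.39 to 62.6. A CpG island was also annotated at 6 of the 8 peaks of the Vps13b place and at 2 of the 6 of the Vps13c place.

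The strongest peaks of the family were in internal exons of Vps13d. Its exon 20 (of 69; chr4 145148552 to 145149118) had a peak in all 8 lists, at percentiles of 99.1 and 99.2 in THOC5 OE lists, 98.9 and 98.8 in GFP OE lists, 98.3 and 98.4 in Pi, and 97.7 and 98.5 in Ctrl. All 4 vector-carrying lists were again above the other 4. Exon 18 also had a peak in all 8 lists, at percentiles of 97.4 to 99.0, but at 2 positions that did not overlap. THOC5 OE, GFP OE and the second list of Ctrl had it at chr4 145155219 to 145155886, and both lists of Pi and the first of Ctrl had it at chr4 145155937 to 145156582. By places, these count as 2 differences between GFP OE and Pi, although exon 18 was marked in both conditions. Exon numbers of Vps13d come from a RefSeq transcript of 69 exons and most of its intron numbers from one of 69 introns, so they can differ by 1 at a position. The place over exon 4 and intron 5 (chr4 145177664 to 145178295) was held by all 8 lists at percentiles of 84.1 to 93.4. The place over exon 28 (chr4 145127640 to 145128275) was held by all 8 at 71.7 to 90.8.

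In Vps13b the strongest place was exon 34 (of 62; chr15 35709291 to 35709897), where all 8 lists had a peak annotated to the exon. Its percentiles were 94.9 and 95.2 in THOC5 OE lists, 93.7 and 92.2 in GFP OE lists, 90.2 and 89.9 in Pi, and 87.6 and 90.9 in Ctrl. All 4 vector-carrying lists were above the other 4 there too. Of the 13 places of Vps13b held by all 8 lists, others lay in intron 5 (chr15 35422456 to 35423086, 72.8 to 93.8), intron 10 (35446043 to 35446676, 82.3 to 91.3) and over exon 19 and intron 18 (35533570 to 35534516, 76.4 to 91.3). In Vps13c the most recurrent place was in intron 54 (chr9 67943504 to 67944046), held by 7 lists. It had percentiles of 90.6 and 89.2 in THOC5 OE lists, 89.2 and 85.9 in GFP OE lists, 83.2 in 1 list of Pi, and 67.8 and 83.3 in Ctrl.

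At the 18 places held by all 8 lists, percentiles were higher in vector-carrying cells. Averaged over the places, the percentile was 84.6 in vector-carrying cells and 74.0 in other cells, and the median difference between their means was 10.98 percentile points, positive at 18 of 18 places. At the 298 such places in other genes it averaged 80.3 in vector-carrying cells and 74.0 in other cells, with a median difference of 4.21 points, positive at 251. Every vector-carrying list was above every other list at 12 of the 18 Vps13 places, 8 in Vps13b and 4 in Vps13d, beside 36.4% of all 316, and below at 0, beside 1.27%. GFP OE was above Pi in every list at 14 of the 18 (47.8% of all), and below at 0 (11.7%). THOC5 OE was above GFP OE in every list at 12 (61.4% of all), a share near that of all places, and below at 0 (2.85%). Pi was above Ctrl in every list at 2 (14.9%) and below at 0 (3.16%). This comparison was chosen after its values were seen, has 2 or 4 lists a side and was not tested; a percentile also moves with the other peaks of the list. The lowest score admitted to a list differed between the same lists: it was 6.72 and 6.31 in THOC5 OE lists, 10.2 and 12.6 in GFP OE lists, 20.5 and 14.9 in Pi, and 29.0 and 15.9 in Ctrl, all 4 vector-carrying lists below the other 4. Its part in the result was not tested.

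By class, 149 of the 460 peaks were annotated to exons, 304 to introns and 7 to 3′ UTRs, and none to a 5′ UTR. Vps13d had 59 exon and 85 intron peaks, Vps13b 71 and 156, Vps13a 15 and 33, and Vps13c 4 and 30. Exons make up a small part of such long genes, but exon lengths were not used here, so exon and intron peaks were not set per base. The exon peaks of Vps13d fell on 23 of 69 exons, those of Vps13b on 22 of 62, of Vps13a on 11 of 72 and of Vps13c on 4 of 85, counting the last exon where a peak in its UTR named it. Of the 111 places, 40 were annotated to an exon or UTR in some lists and to an intron in others, 20 to an exon or UTR in every list that held them, and 51 to an intron in every one. HOMER gives a peak the class at its centre, so at the 40 places a small shift of the peak changed its class.

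The exon share of the family was close to that of other genes and varied between lists. It was 40.7% and 23.2% in THOC5 OE lists, 41.7% and 31.0% in GFP OE lists, 20.8% and 30.6% in Pi, and 32.1% and 33.8% in Ctrl. For peaks in all other genes it was 29.4% and 27.8% in THOC5 OE lists, 31.9% and 27.2% in GFP OE lists, 31.1% and 32.3% in Pi, and 36.9% and 34.3% in Ctrl. Within lists the family's share minus that of other genes averaged 0.389 percentage points (SD 7.45, n = 8 lists) and was positive in 3 of 8 lists (exact sign-flip permutation test, p = 0.922). Between conditions the share differed by -4.36 points for THOC5 OE minus GFP OE, -7.21 for Pi minus Ctrl, 10.6 for GFP OE minus Pi and 4.78 for vector-carrying minus other cells. None passed (exact permutation tests, p = 0.667, 0.333, 0.333 and 0.429, adjusted p = 0.571 or 0.667). With single lists left out, THOC5 OE minus GFP OE was -13.1 points without the first THOC5 OE list and 4.37 points without the second.

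**Figure D4:**
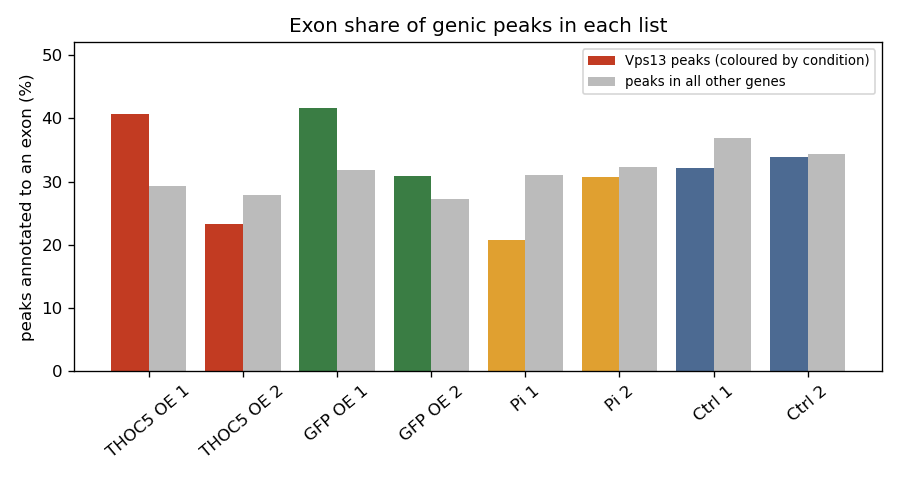
Percent of genic peaks annotated to an exon in each list, for the 4 Vps13 genes (coloured by condition) and for all other genes (grey). The Vps13 share ran from 20.8% to 41.7% and lay above the grey bar in 3 of 8 lists.

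Vps13 peaks ranked high within their lists. Their median score percentile was 77.1 and 72.4 in THOC5 OE lists, 77.6 and 72.0 in GFP OE lists, 65.2 and 68.7 in Pi, and 55.3 and 72.3 in Ctrl, against 49.3 to 50.3 for peaks in other genes. The difference averaged 20.2 percentile points (SD 7.05, n = 8 lists), positive in 8 of 8. It is given without a test, since the score decides which peaks enter a list and the genes were chosen on their peaks. Few Vps13 peaks were weak: 64.2% of Vps13 peaks in the first Ctrl list and 81.3% to 95.2% in the others lay above the median score of their list. Among peaks at or above the median score, the family's median percentile was 0.736 points below that of other genes. By gene, the median percentile over all peaks was 77.6 for Vps13d, 75.2 for Vps13c, 71.4 for Vps13b and 58.9 for Vps13a.

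Score percentiles declined along both of the most marked genes. In Vps13d, Spearman's correlation of the percentile with distance from the gene start lay between -0.87 and -0.54 in the 8 lists, over 12 to 23 peaks a list. In Vps13b it lay between -0.65 and -0.44, over 23 to 34 peaks. The median percentile of Vps13b peaks was 68.5 to 84.9 in the first part of the gene up to its midpoint and 32.6 to 69.9 past it, higher in the first part in 8 of 8 lists. The peaks of a list share a library, and those of different lists share positions, so no p-value is attached. The same could be described for 9 genes, those with at least 10 peaks in every list. Of these, 4 had a negative correlation in all 8 lists (Vps13b, Vps13d, Utrn and Kalrn), 2 had a positive one in all 8 (Dst and Syne1) and 3 were mixed. Vps13d had the most negative median correlation of the 9, -0.82. The sign thus differed among the most marked genes, and Utrn and Kalrn shared it with Vps13b and Vps13d. Vps13a and Vps13c, with 2 to 13 and 2 to 9 peaks a list, did not show the decline. Of the 7 lists with peaks in both parts, the first part was higher in 2 for Vps13a and in 1 for Vps13c. The median difference, first part minus second, was -14.9 points for Vps13a and -23.5 for Vps13c.

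**Figure D5:**
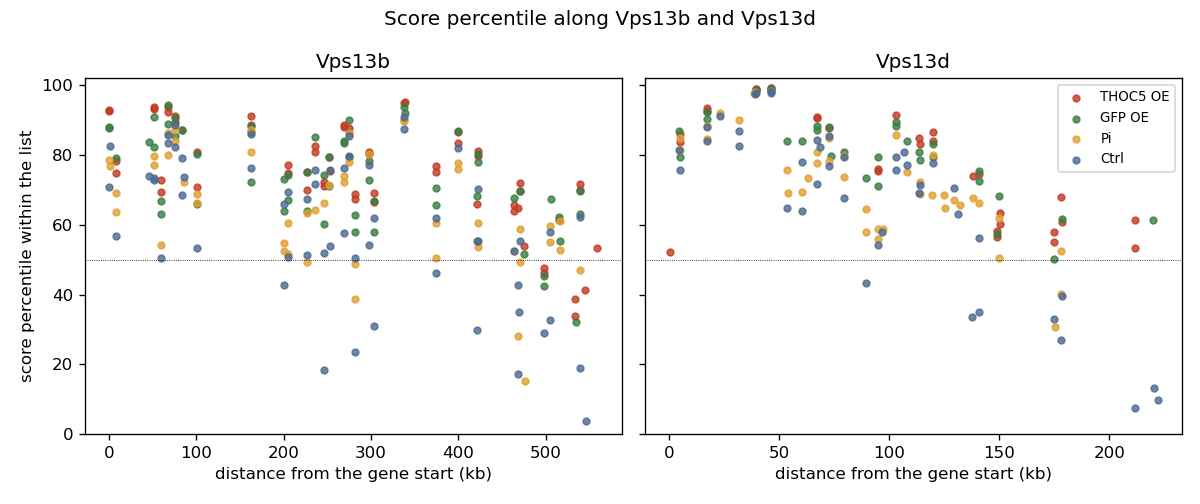
Score percentile of each peak within its list against the distance of its centre from the gene start in kb, for Vps13b and Vps13d, coloured by condition. In Vps13d the peaks of exons 18 and 20 stand at 97.4 and above, and percentiles fall toward the right in both genes; the dotted line marks percentile 50.

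Few places separated the conditions in the Vps13 genes, as among all genic places, where the shares were 0.286% to 8.08% by comparison. Of 89 Vps13 places held by THOC5 OE or GFP OE, 2 were in both lists of THOC5 OE and neither of GFP OE (8.08% of the 7609 genic places that THOC5 OE or GFP OE held), 1 in Vps13a and 1 in Vps13d, and 1 in both of GFP OE and neither of THOC5 OE (1.41%), in intron 19 of Vps13b. Of 96 held by Pi or Ctrl, 4 were in both lists of Pi and neither of Ctrl (2.40% of the 8262 that Pi or Ctrl held), and 3, all in Vps13b, in both of Ctrl and neither of Pi (4.76%). Of 97 held by GFP OE or Pi, 4 were in both lists of GFP OE only (5.06% of the 7725 that GFP OE or Pi held) and 4 in both of Pi only (3.77%), among them the 2 positions of exon 18 of Vps13d. Of the 111 places, 0 were in all vector-carrying lists and in none of the others (0.823%). The reverse held for 1 (0.286%), in intron 45 of Vps13b at chr15 35875786 to 35876410, which both lists of Pi and both of Ctrl had at percentiles of 32.6 to 59.7. The comparisons share lists, so a place can count in several of them.

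The share of the family's peaks on repeats was near that of other genes. A repeat was annotated at the centre of 41 of the 460 peaks (8.91%). By list the share was 5.56% to 12.5% for Vps13 peaks and 5.99% to 10.3% for peaks in other genes. In Vps13b 20 of the peaks on repeats were on LINE elements and 5 on the BC1 element of intron 3 (chr15 35378935 to 35379488). In Vps13d 11 peaks were on SINE elements. Peaks of several lists on the same repeat are counted separately here, as are the 8 on the RSINE1 repeat of Vps13d. The deposited nearest gene differed from the gene that held the peak for 204 of the 460 peaks (44.3%). For Vps13b this concerned 169 peaks, listed under Mir599 (75), Mir875 (47) or Cox6c (47). Mir599 and Mir875 lie inside Vps13b at chr15 35660831 to 35660918 and 35660970 to 35661047, and the nearest Vps13b peaks were 7557 and 7428 bp from them. None of these peaks thus lay on a microRNA. For Vps13d 18 peaks were listed under Dhrs3, and for Vps13c 17 under Gm20745.

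Other genes of lipid transfer and organelle contact were marked unevenly. Of 6 further genes of bridge-like lipid transfer proteins, 4 had a peak in at least 4 lists, as had 6.47% of the 21900 protein-coding RefSeq genes and 35.4% of the 4051 genes with any peak, and 2 in all 8. 4932438A13Rik, the gene of BLTP1, a protein of the same rod-like form, had 132 peaks (39 exonic and 91 intronic): 15 and 14 in THOC5 OE lists, 21 and 10 in GFP OE lists, 15 and 21 in Pi, and 15 and 21 in Ctrl. Uhrf1bp1l, the gene of BLTP3B, had 27 peaks in 8 lists, and Atg2b, whose protein feeds lipid to growing autophagosomes, had 6 in 4 lists. Of 24 genes of contact-site proteins, 14 had any peak, as had 18% of protein-coding genes, and 6 had one in at least 4 lists. They included Tex2 with 10 peaks in 6 lists, Rhot1, a mitochondrial GTPase that recruits VPS13D in human cells, with 8 in 6 lists, and Osbpl1a and Osbpl3, genes of the oxysterol-binding family, with 6 peaks each in 6 and 4 lists. Of 11 genes of partners and autophagy factors, 2 had any peak, a share near that of all protein-coding genes, and Rb1cc1, a scaffold of autophagy initiation, had 7 in 5 lists. Vapa and Vapb, whose proteins anchor VPS13 proteins to the endoplasmic reticulum, had none; they were named after their values were seen.

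Across lists, a similar pattern was seen only for Vps13b and Vps13d. Vps13a and Vps13c had 2 to 13 and 2 to 9 peaks a list, too few for a low correlation to show that a common pattern is absent. The Pearson correlation of peaks per 1000 over the 8 lists was 0.64 between Vps13b and Vps13d and between -0.24 and 0.07 for the other pairs. Among 205 genes with a peak in every list and at least 3 on average, the patterns most like the sum of the 4 members were those of Dst (0.94), Birc6 (0.90) and Usp24 (0.90), over the same 8 lists. That sum is mostly Vps13b and Vps13d, with 228 and 147 of the 460 peaks. All these values share the lengths of the lists and are descriptions only.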

How the data were processed

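RNA immunoprecipitated with THOC5 was sequenced in 8 samples; FastQC, Bowtie2, MACS2, SAMtools and mm10 are named, with no roles, per the submitters' processing notes. Per the file headers, the authors ran HOMER's annotation on mm10 peaks. The deposited peak score is used as a rank within its list, because the sources used here give neither its scale nor the program that made it; the depth of the libraries is unknown. Lists were joined to samples by the condition and number in the file headers.

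Genes came from the RefSeq transcript of each annotation (4998 of 5008 transcripts matched, 99.8%). Differences between lists were tested by exact permutation, exon shares within lists by exact sign-flip permutation, with Benjamini-Hochberg adjustment (Python 3.11.15, pandas 2.3.3, scipy 1.17.1). The counting, merging and tests were checked on simulated lists. A planned test of score percentiles was not used, since the score bears on the choice of genes. The members and all gene lists were chosen with earlier results of these data known. Named besides the members were up to 8 listed lipid transfer and contact genes with peaks in at least 4 lists, ordered by lists, peaks and then name, and the 3 genes most alike in pattern. Alternatives were score cuts, other gene assignment, unscaled numbers, other merging, a replicate block and leaving out each list.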

Additional observations from a re-analysis of the deposited data

How the results depend on the processing

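No comparison of peak number or exon share passed 0.05 as reported, and the single one to do so under an alternative was Vps13d in vector-carrying minus other cells without the second Ctrl list (-2.70 per 1000, exact permutation p = 0.0286). Comparisons of 2 lists with 2 could not pass, so directions are given without a call; among those that turned were differences of THOC5 OE and GFP OE lists that did not overlap, and the cause was not tested. With peaks at or above the median score of the list, Pi minus Ctrl was 3.91 per 1000 (Vps13b 0.689), vector-carrying minus other was 1.38 (Vps13b 2.09, Vps13c 0.196), the exon share minus that of other genes was -5.58 points (p = 0.0625, exact) and the median percentile minus that of other genes -0.736. With lists cut to the 2572 peaks of the shortest, vector-carrying minus other was 0.778 (Vps13b 1.26), THOC5 OE minus GFP OE -0.389 (Vps13b 0.194), the exon share minus that of other genes -2.21 points and the percentile difference 8.50. By the nearest gene as deposited, Pi minus Ctrl was 1.43 (Vps13c 0.0571), GFP OE minus Pi -1.03 (Vps13c -0.307) and the exon share minus that of other genes -0.602. As unscaled numbers, THOC5 OE minus GFP OE was 0.5 (Vps13b 1.5), and Vps13b in vector-carrying minus other 2.5.

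Leaving out each list in turn, THOC5 OE minus GFP OE ranged from -6.41 to -3.34 per 1000 (Vps13a -1.81 to 0.525, exon share -13.1 to 4.37 points). Pi minus Ctrl ranged from -3.19 to 2.99 (Vps13b -2.88 to 1.41, Vps13d -1.09 to 2.01, exon share -12.1 to -2.30 points), and GFP OE minus Pi from -0.845 to 2.23 (Vps13a -0.507 to 1.83, Vps13b 0.619 to 2.13, Vps13c -0.0613 to 0.507, exon share 5.21 to 15.9 points). Vector-carrying minus other ranged from -3.12 to -0.748 (exon share 1.95 to 8.42 points), from -0.754 to 0.677 for Vps13b and -0.373 to 0.00236 for Vps13c, and the exon share minus that of other genes from -1.17 to 1.91 points. The places numbered 98 to 128, those held by every list 14 to 22, and those of them with every vector-carrying list above every other list by percentile 10 to 17 over the alternatives run, including linking at a gap of up to 1000 bases, which was chosen after seeing the data. Assigning genes by RefSeq span left every comparison as it was in direction and call.

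No pairing of the lists by replicate number was seen. Differences between replicates correlated at 0.072 for THOC5 OE with GFP OE, -0.15 for GFP OE with Pi and 0.048 for Pi with Ctrl, over 4051 genes. The median gene had a peak in only 2 lists, so correlations this low cannot exclude a pairing. With a replicate block, THOC5 OE minus GFP OE stayed at -4.87 per 1000 (exact p = 0.5, the smallest possible), and 0 comparisons passed. With the GFP OE and Pi numbers crossed, which was chosen after seeing the data, 0 passed either. Limits are the 2 lists a condition, the unknown depth and score scale, and the unused inputs, so levels of the transcripts cannot be told apart from binding.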
